A study of Thermochaetoides thermophila with 9 samples.

Results

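The genes described here are those of the thermophilic fungus Chaetomium thermophilum whose transcripts were most abundant after exposure to glucose and were not lowered by xylose. Of 7785 listed genes, 115 met the rule. They were chosen by their read counts, divided by a scaling factor per library (the median of ratios over the 6503 genes with at least 10 counts in all 9 libraries). Every Glucose library had to lie above every Xylose and Reference library, the Glucose mean had to be at least 3 times the Xylose mean and at least 3 times the Reference mean, the Xylose mean had to be at least 0.67 of the Reference mean, and the Glucose mean had to reach 100 scaled counts. All 3 contrasts were thus used to choose the members, so their levels and ratios are a description and carry no test. All 115 passed the filter on low counts, and 107 had at least 10 counts in each of the 9 libraries.

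Wild-type mycelium was depleted of carbon in a minimal medium without sugar for 48 h and then kept for 6 h in medium with 1% glucose (Glucose), with 1% xylose (Xylose) or without sugar (Reference), with 3 biological replicates each. The workflow figure of the study gives the Reference the same 6 h. The study's results and methods can also be read as Reference RNA taken before the sugar was given. The labels give a growth temperature of 50 °C. The study's methods give a shorter depletion than its results, and its workflow figure gives a higher temperature than the labels. All groups share the genotype, the depletion and the minimal medium, and the labels name a rich medium for the preculture where the methods name another. The total count on genes ranged over the libraries from 38806913 to 52229013, and rRNA genes took 7.36% to 31.97% of it. The members took 11.1% to 12.5% of the remaining counts in the Glucose libraries, 2.02% to 3.42% in the Xylose libraries and 1.70% to 2.25% in the Reference libraries. The 2 most abundant members alone took 4.808% to 5.768%, 0.832% to 2.505% and 1.034% to 1.275%, in the same order.

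Filamentous fungi sense glucose as a preferred carbon source, and its arrival in starved mycelium is known to change the transcription of genes for uptake, respiration, wall building and secretion. Electrons from the breakdown of sugar pass through ubiquinone to the cytochrome complexes, whose function needs heme and copper. Many fungi also have an alternative oxidase, which takes electrons from ubiquinone directly to oxygen and bypasses the cytochrome complexes. These statements are background and not results of these data.

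The median log2 ratio of the members was 2.95 for Glucose over Reference and 2.52 for Glucose over Xylose, and the ranges were 1.59 to 7.08 and 1.59 to 7.34. For Xylose over Reference the median was 0.19 and the range was -0.52 to 3.17. Both Glucose ratios were at least 8 in 34 members and at least 16 in 19. In the edgeR quasi-likelihood test, 115 of the 115 members were called higher in Glucose than in Reference, where 24.0% of the 6904 genes tested were called higher. Against Xylose 111 were called higher in Glucose, where the share among all genes tested was 22.6%. Lower calls in Glucose, which the rule does not allow, made up 25.4% and 28.2% of the genes tested in these comparisons. The 4 members without a call there were CTHT_0027570, CTHT_0071990, CTHT_0072000 and CTHT_0038190. In Xylose against Reference, 17 members were called higher, with 32.3% called higher among all genes tested, and 0 were called lower, with 32.4% called lower among all genes tested (also 0 at an unadjusted p under 0.05 in edgeR, and 0 with DESeq2). As the rule used these contrasts and bounds the fall in xylose, nothing is read from these counts.

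**Figure D1:**
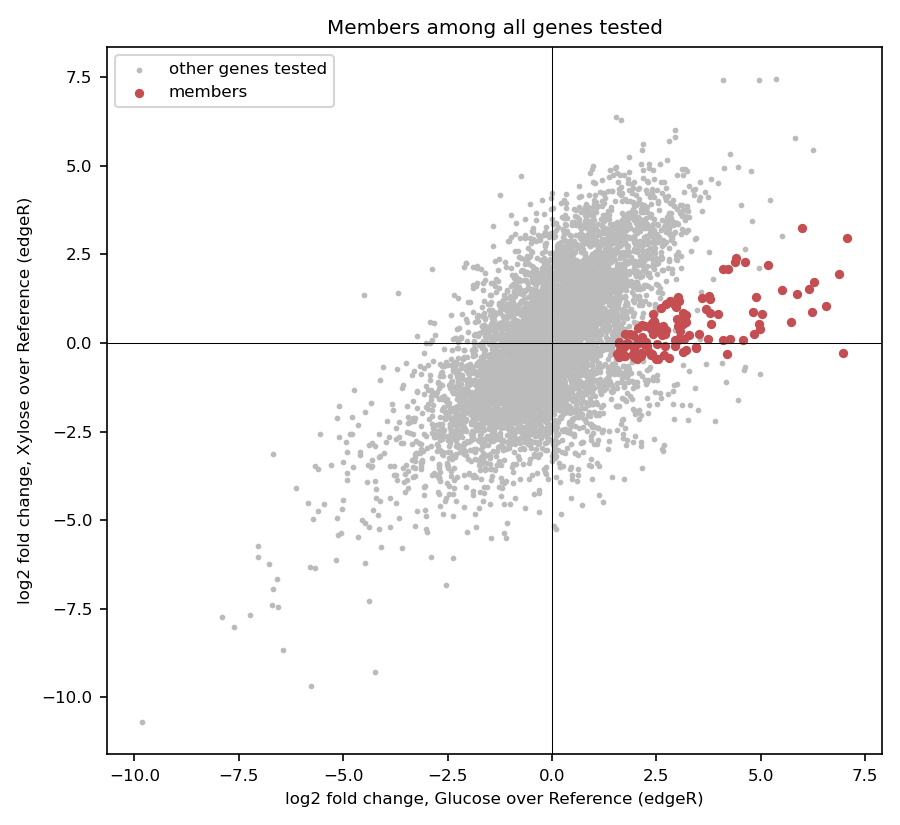
Each point is a gene tested, with its edgeR log2 fold change in Glucose over Reference on the horizontal axis and in Xylose over Reference on the vertical axis, and the 115 members are red. The rule places the members to the right of 0 and near or above 0 on the vertical axis.

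Of the members, 25 carry a description other than uncharacterized in the annotation tables of the study, 1 of which, that of CTHT_0019400, reads non-coding. A further 49 are listed as uncharacterized proteins and 41 had no name in the tables used. RefSeq lists 113 of the members as protein-coding, CTHT_0019400 among them, and 2, CTHT_0072000 and CTHT_0038190, as pseudogenes.

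The most abundant member was CTHT_0027570, a thaumatin-like elicitor gene. It had 988665, 1238319 and 1729307 scaled counts in the Glucose libraries, 207014, 759558 and 212311 in the Xylose libraries and 354215, 327661 and 244014 in the Reference libraries. Xylose 2 stood far above the other Xylose libraries and came close to Glucose 1. The log2 ratio was 2.10 for Glucose over Reference and 1.75 for Glucose over Xylose. The gene met the rule in only 6 of the 9 runs that each left out 1 library.

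Among genes of respiration, the alternative oxidase gene CTHT_0031430 had 97685, 141918 and 103165 scaled counts in Glucose, 2461, 9744 and 2816 in Xylose and 2005, 7787 and 1178 in Reference. The lowest Glucose library was 10.03 times the highest other library. The log2 ratio was 4.97 over Reference and 4.51 over Xylose, and replicate 2 was the highest library in both Xylose and Reference. A pair of genes described as cytochrome c oxidase-like, part of or linked to the terminal oxidase of the cytochrome pathway, were members with smaller ratios. CTHT_0014210 averaged 23101 ± 3585 scaled counts in Glucose, 6587 ± 2718 in Xylose and 5879 ± 1796 in Reference (SD, n = 3 each). CTHT_0008660 averaged 7359 ± 871 in Glucose, 2249 ± 449 in Xylose and 1193 ± 368 in Reference (SD, n = 3 each). COQ4 (CTHT_0013130), which acts in ubiquinone synthesis, had 4821, 5524 and 4142 scaled counts in Glucose, 827, 677 and 1663 in Xylose and 119, 398 and 167 in Reference, and, like CTHT_0008660, had every Xylose library above every Reference library. The genes described as a mitochondrion protein (CTHT_0058180) and a normal mitochondrial morphology protein (CTHT_0061730) had log2 ratios of 3.22 and 2.69 over Reference and of 2.51 and 2.29 over Xylose.

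Among genes of cofactors, CTHT_0005000 encodes a coproporphyrinogen III oxidase-like protein, an enzyme of heme synthesis. It had 185463, 227280 and 246453 scaled counts in Glucose, 7216, 45687 and 31713 in Xylose and 28458, 36088 and 18972 in Reference, and its Xylose and Reference means were nearly equal (28205 and 27839). The heme-binding protein gene CTHT_0047870 averaged 9740 ± 2112 in Glucose, 2361 ± 753 in Xylose and 3124 ± 1082 in Reference (SD, n = 3 each), and met the rule in 5 of the 9 runs without 1 library. CTHT_0071990, described as a high affinity copper protein, had 257563, 235584 and 282792 scaled counts in Glucose, 82336, 6612 and 99298 in Xylose and 61098, 54358 and 22071 in Reference. Xylose 2 was far below the other Xylose libraries for this gene. The same library was the lowest Xylose library for its neighbour CTHT_0072000, with 13686, 1898 and 27233 scaled counts in Xylose.

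Among genes of the wall, surface and lipids, the covalently-linked cell wall protein gene CTHT_0063980 had 8114, 14224 and 23788 scaled counts in Glucose, 169, 1541 and 241 in Xylose and 365, 1094 and 461 in Reference. Its log2 ratio was 4.59 over Reference and 4.56 over Xylose. Glucose 3 was the highest Glucose library and replicate 2 the highest of both other groups. The gene of endo-chitosanase, an enzyme that cleaves chitosan (CTHT_0036340), averaged 16273 ± 3706 in Glucose, 2826 ± 1301 in Xylose and 1184 ± 404 in Reference (SD, n = 3 each). The gene of a GPI-anchored membrane protein, CTHT_0072360, averaged 169001 ± 15170 in Glucose, 40159 ± 9237 in Xylose and 32077 ± 11720 in Reference (SD, n = 3 each). Serine palmitoyltransferase catalyses the entry step of sphingolipid synthesis, and the gene of a protein like its subunit 2, CTHT_0026500, had log2 ratios of 3.01 over Reference and 2.40 over Xylose. The adjacent acetoacetate-CoA ligase-like gene CTHT_0026510 had log2 ratios of 2.18 and 1.75. The lipid binding protein gene CTHT_0050800 had a Xylose mean of 0.698 of the Reference mean, close to the limit of the rule.

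A further 4 members have descriptions that name transport, a carboxylic acid or a membrane. CTHT_0055740, an MFS general substrate transporter, had 744, 1376 and 1332 scaled counts in Glucose, 19.3, 29.0 and 21.5 in Xylose and 5.36, 14.2 and 16.6 in Reference. CTHT_0027630, described as a carboxylic acid protein, had 6755, 9343 and 4766 in Glucose, 149, 257 and 153 in Xylose and 103, 183 and 102 in Reference. For CTHT_0027630 the lowest Glucose library was 18.5 times the highest other library. CTHT_0056480, described by transmembrane transport that depends on ATP, had log2 ratios of 4.22 over Reference and 4.61 over Xylose. CTHT_0037710, described as a transmembrane protein of a tryptophan and auxin pathway, had 5.01 and 4.66.

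The other described members were a transferase-like gene (CTHT_0070650), a cysteine protease gene (CTHT_0048230), the gene of subunit 2 of DNA helicase II (CTHT_0025310), a protein of DNA end joining in other fungi and animals, and a carbonic anhydrase gene (CTHT_0069120). Their log2 ratios over Reference were 2.43, 1.77, 1.74 and 4.44, and those over Xylose were 1.69, 2.21, 1.90 and 2.13. Carbonic anhydrase, which interconverts carbon dioxide and bicarbonate, had 1162, 681 and 3605 scaled counts in Glucose, 678, 96.6 and 471 in Xylose and 114, 48.5 and 88.5 in Reference. Glucose 2 and Xylose 1 were almost equal for this gene, and it met the rule under 0 of the 3 other scalings.

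**Figure D2:**
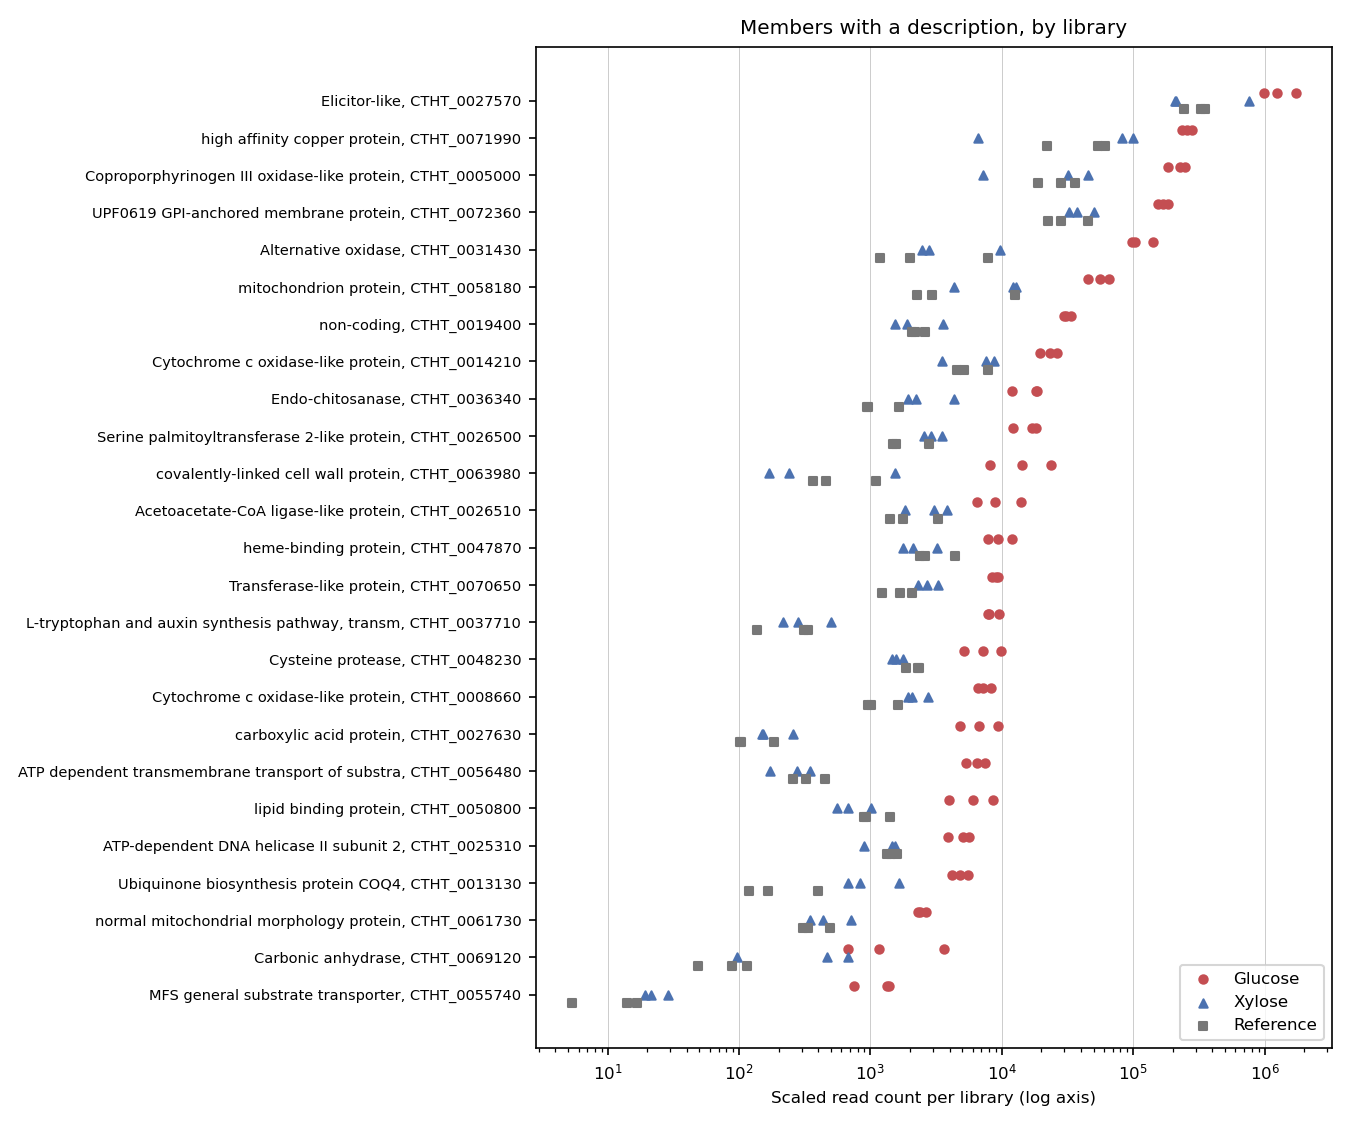
Scaled counts in each library, on a log axis, for the 25 members with a description, ordered by their Glucose mean from top to bottom. The Glucose points lie to the right of all others by the rule, by a wide margin for the MFS transporter and narrowly for carbonic anhydrase, whose Glucose points reach down to 681.

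Among members without a description, CTHT_0054700 had the largest ratio over Xylose. It had 32280, 66304 and 80156 scaled counts in Glucose, 432, 308 and 363 in Xylose and 40.2, 741 and 633 in Reference, and its lowest Glucose library was 43.5 times the highest other library. CTHT_0021100 had the largest ratio over Reference, with 45931, 44826 and 39035 in Glucose, 1985, 522 and 4584 in Xylose and 225, 360 and 374 in Reference. The Xylose libraries of CTHT_0021100 lay above its Reference libraries without overlap. CTHT_0031870 was alike in this, with the largest log2 ratio of Xylose over Reference, 3.17. The uncharacterized genes CTHT_0018490, CTHT_0039860, CTHT_0019520, CTHT_0019420, CTHT_0068470 and CTHT_0007790 were among the 10 most abundant members, with Glucose means between 124576 and 1053671 scaled counts. Of these, CTHT_0039860 had the largest log2 ratios, 5.06 over Reference and 4.33 over Xylose. CTHT_0010420, CTHT_0002290, CTHT_0013000, CTHT_0011260 and CTHT_0070550 were among the 10 with the largest value of the smaller Glucose ratio. CTHT_0002290 had 3488, 4463 and 373 in Glucose, and CTHT_0011260 had 89.7, 135 and 661. Glucose 3 was by far the lowest Glucose library for CTHT_0002290 and by far the highest for CTHT_0011260.

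The ratio of Xylose to Reference varied widely among the members. The Xylose mean was below the Reference mean in 40 members, at least 2 times it in 22 and at least 4 times it in 8. Every Xylose library lay above every Reference library in 15 members and below in 2. After CTHT_0031870 and CTHT_0021100, the highest log2 ratios of Xylose over Reference were 2.31 for carbonic anhydrase, 2.21 for COQ4 and 2.20 for CTHT_0013180. The lowest were -0.52 for CTHT_0031610, CTHT_0050800 and CTHT_0004720, -0.49 for CTHT_0005180 and -0.48 for CTHT_0031200.

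The genes nearest to each limit were as follows. For the ratio over Reference, CTHT_0039440 (3.01), CTHT_0031200 (3.08) and CTHT_0035100 (3.10) were just inside, and CTHT_0047700 (2.998), CTHT_0019340 (2.96) and CTHT_0020300 (2.79) just outside. For the ratio over Xylose, CTHT_0063740 (3.01), CTHT_0041940 (3.22) and CTHT_0070650 (3.23) were inside, and CTHT_0041060 (2.99), CTHT_0019390 (2.96) and CTHT_0063770 (2.95) outside. For Xylose over Reference, CTHT_0031610 (0.697), CTHT_0050800 (0.698) and CTHT_0004720 (0.700) were inside, and CTHT_0016560 (0.662), CTHT_0041090 (0.649) and CTHT_0032150 (0.636) outside. For the Glucose mean, CTHT_0021020 (100.4), CTHT_0055860 (134) and CTHT_0010160 (144) were inside, and CTHT_0019900 (77.6), CTHT_0071160 (59.6) and CTHT_0047970 (53.9) outside. For the lowest Glucose library over the highest other, CTHT_0069120 (1.00), CTHT_0013180 (1.05) and CTHT_0038190 (1.05) were inside, and CTHT_0015280 (0.851), CTHT_0038130 (0.775) and CTHT_0020850 (0.422) outside.

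The rule did not compare replicates within a group, but it used single libraries and means that 1 high library can raise. The shares of members below are thus a description and carry no test. Glucose 3 was the highest Glucose library for 78 members (67.8%), against 40.5% of all genes tested, and Glucose 1 was the highest for 4 (3.50%), against 37.1%. Reference 2 was the highest Reference library for 67 members (58.3%), against 41.5% of all genes tested. Xylose 2 was the highest Xylose library for 55 (47.8%), near the 43.6% of all genes tested. Glucose 3 also had the fewest reads counted and 22.9% of them on rRNA genes, against 7.36% in Glucose 1 and 11.7% in Glucose 2, and the part of these values in the pattern was not tested. The rule kept 65 of the 115 members in all 9 runs without 1 library. Without Xylose 2, 103 genes met the rule and 88 of them were among the 115.

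**Figure D3:**
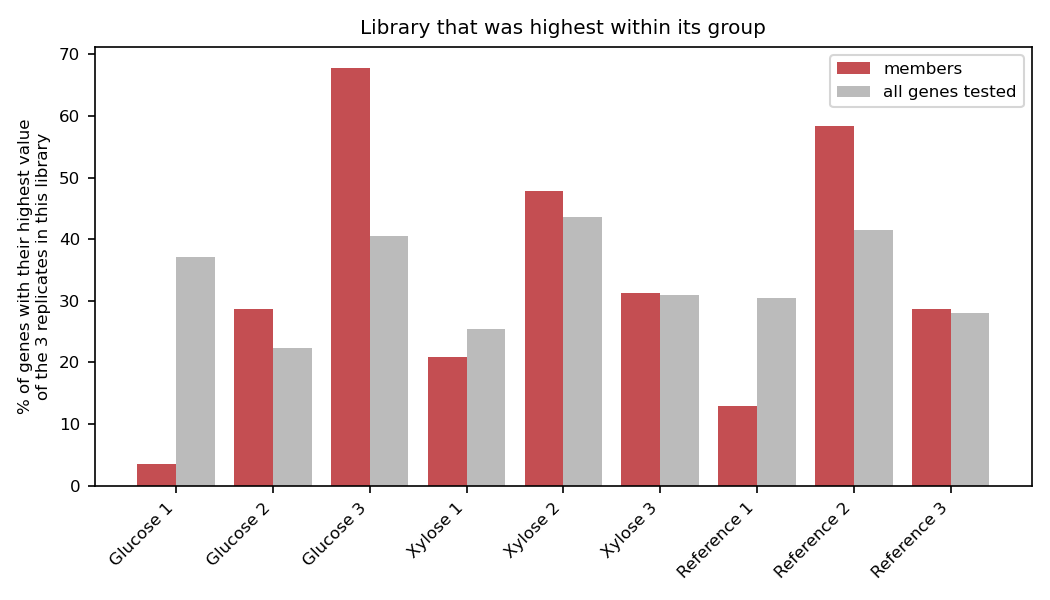
Percent of the 115 members (red) and of the 6904 genes tested (grey) that had their highest scaled count of the 3 replicates in each library. Members were highest in Glucose 3 in 67.8% and in Glucose 1 in 3.50%.

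Position in the genome was not used by the rule. In the order of locus tags in RefSeq, 15 members fell into 7 runs of direct neighbours. Of 229 neighbouring positions, 16 (6.99%) held another member, where members are 1.48% of the listed genes. The longest run was CTHT_0019400, CTHT_0019410 and CTHT_0019420, with Glucose means of 31231, 5695 and 220504 scaled counts and log2 ratios over Reference of 3.77, 2.96 and 4.91. The gene before it, CTHT_0019390, missed only the limit on the ratio over Xylose, and lies between CTHT_0019400 and the member CTHT_0019380. The other runs were CTHT_0021020 with CTHT_0021030, CTHT_0021340 with CTHT_0021350, CTHT_0026500 with CTHT_0026510, CTHT_0036330 with the endo-chitosanase gene CTHT_0036340, CTHT_0057600 with CTHT_0057610, and CTHT_0071990 with CTHT_0072000. The libraries came from a directional kit, which keeps the strand, but the sources used here do not state whether the counting used it, and whether these neighbours overlap was not tested.

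Of the 188 tested neighbours that were not members, 16 (8.51%) were called higher in Glucose than in both other groups, where the share among all genes tested was 7.02%. In Glucose against Reference 45 (23.9%) were called higher, where the share among all genes tested was 24.0%. The neighbour with the largest fitted change over Xylose was CTHT_0011270, with log2 fold changes of 2.67 over Reference and 5.70 over Xylose (edgeR quasi-likelihood test, adjusted p = 0.000769 and 4.54e-05). In Xylose over Reference this gene, a noncoding transcript in the study, had -3.04 (edgeR adjusted p = 0.000164). The solute:hydrogen antiporter gene CTHT_0021110, next to CTHT_0021100, rose by 2.64 and 5.62 (edgeR, adjusted p = 0.002 and 6.48e-05). Unlike its neighbour, it had a lower mean in Xylose (3196 scaled counts) than in Reference (26622).

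Genes that share a pathway with described members were taken by words in the product names of the 1992 genes named in the study's table ordered by level in glucose. Of that set, 42.4% were called higher in Glucose than in Reference and 9.99% lower, 37.1% and 13.96% in Glucose against Xylose, and 37.3% and 32.6% in Xylose against Reference. Glucose against Reference and Xylose against Reference share the Reference libraries. The median log2 fold change of that set was 0.70 in Glucose over Reference, 0.34 in Glucose over Xylose and 0.14 in Xylose over Reference. Over all genes tested these medians were -0.05, -0.16 and -0.05. That table named only 1992 of the 7785 listed genes, so the lists can lack pathway genes that were low in glucose. The counts below describe the named genes and not whole pathways.

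The calls of members on these lists in the 2 Glucose contrasts follow from the rule, so the counts below are over the other genes of each list. Of 36 genes of respiratory complexes and cytochrome c besides the 2 members, 22 rose in Glucose against Reference, and their log2 fold changes had a median of 1.33. In Xylose against Reference 26 rose, with a median of 1.46. In Glucose against Xylose 1 rose and 3 fell, with a median of -0.22. The 1 that rose was the oxidase assembly gene CTHT_0043040 (log2 fold change 1.39, edgeR adjusted p = 0.0207), whose call was lost without Glucose 3 or without Xylose 3 (adjusted p up to 0.0649). A cytochrome c oxidase assembly-like gene, CTHT_0045520, averaged 3926 ± 186 scaled counts in Glucose, 3374 ± 771 in Xylose and 507 ± 285 in Reference (SD, n = 3 each). It rose by 2.93 in Glucose over Reference on the log2 scale (edgeR adjusted p = 0.000158), with 0.12 in Glucose over Xylose (adjusted p = 0.796). Subunit 7 of the cytochrome b-c1 complex, CTHT_0063540, had 2.45 (adjusted p = 0.00114) and -0.15 (adjusted p = 0.781) in edgeR. The NADH-ubiquinone oxidoreductase-like genes CTHT_0026400 and CTHT_0063510, of the complex that passes electrons from NADH to ubiquinone, rose by 2.47 and 2.43 in Glucose over Reference. The alternative oxidase was the only gene of its list.

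Besides COQ4, 3 of 3 genes of ubiquinone synthesis rose in Glucose against Reference, 2 in Xylose against Reference and 1 in Glucose against Xylose. In Glucose over Reference the log2 fold change was 3.60 for an O-methyltransferase gene (CTHT_0043890), 2.22 for a methylase gene (CTHT_0043520) and 1.51 for a monooxygenase-like gene (CTHT_0057100), and the last was the one that also rose over Xylose, by 1.19. Of 6 genes of heme synthesis and binding besides the members, 3 rose in Glucose against Reference, CTHT_0018240 by 1.80, ferrochelatase (CTHT_0032910) by 1.25 and CTHT_0035090 by 1.19. In Xylose against Reference 4 of the 6 rose, and the median was 1.06 there and 0.81 in Glucose against Reference. Ferrochelatase rose by 1.98 in Xylose over Reference. In Glucose against Xylose 2 of the 6 were called lower. The cytochrome c heme lyase gene CTHT_0046440 was 1 of these, and it is also counted among the 3 that fell on the respiratory list. Ferrochelatase, which inserts iron in the last step of heme synthesis, was the other, with a log2 fold change of -0.74 (edgeR adjusted p = 0.0224). The ferrochelatase call held in 8 of 16 alternative fits. It was lost when any single Glucose or Xylose library was left out, with no filter on low counts and when every library needed 10 counts (edgeR adjusted p up to 0.100). Of the 2 copper genes besides the member, the copper resistance gene CTHT_0043160 was called lower in Glucose than in Reference (log2 fold change -0.70, edgeR adjusted p = 0.0223). That call held in 9 of 16 alternative fits. It was lost without any single Glucose library or Reference 1, with total counts, with no filter on low counts and when every library needed 10 counts (edgeR adjusted p up to 0.100). The other copper gene, the high affinity copper protein gene CTHT_0003850, had a log2 fold change of 1.21 (edgeR adjusted p = 0.0898).

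Besides the member, 3 of 3 sphingolipid genes rose in Glucose against Reference, 2 in Glucose against Xylose and 1 in Xylose against Reference. The ceramide fatty acid hydroxylase gene CTHT_0006950 had log2 fold changes of 1.20 and 1.36 (edgeR adjusted p = 0.00372 and 0.00157). The 3-ketodihydrosphingosine gene CTHT_0022810 had 1.77 and 0.88, and its call over Xylose was lost with total counts, without Glucose 3 and without Xylose 2 (edgeR adjusted p up to 0.11). The serine palmitoyltransferase-like gene CTHT_0017610 rose over Reference by 0.86, a call that was lost with total counts (edgeR adjusted p = 0.0686).

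The lists of fatty acid and sterol genes and of glycogen and trehalose genes held no member. Of 13 fatty acid and sterol genes, 5 rose and 2 fell in Glucose against Reference. In Xylose against Reference 4 rose and 3 fell, and in Glucose against Xylose 3 rose and 0 fell. Besides CTHT_0006950, the largest rises in Glucose over Reference were 2.88 for a very-long-chain oxoacyl-CoA reductase gene (CTHT_0036260), 1.78 for a fatty acid desaturase-like gene (CTHT_0063770) and 1.63 for a sterol dehydrogenase-like gene (CTHT_0009530). In the same order these genes had 2.96, 0.32 and 1.52 in Xylose over Reference, and -0.08, 1.46 and 0.12 in Glucose over Xylose. The genes that fell are like enzymes of fatty acid breakdown, a ketoacyl-CoA thiolase (CTHT_0042470, log2 fold change -1.92) and an acyl-CoA dehydrogenase (CTHT_0037110, -1.42), called in 14 and 11 of 16 alternative fits. The first call was lost without Glucose 1 or 3 (edgeR adjusted p up to 0.0721). The second was lost without any single Glucose library or Reference 2 and with the replicate block (edgeR adjusted p up to 0.0861). Of 7 glycogen and trehalose genes, 3 rose in Glucose against Reference and 5 in Glucose against Xylose. In Xylose against Reference 1 rose and 2 fell. The 3 were those of trehalose-6-phosphate synthase (CTHT_0019220, 1.73), glycogen synthase (CTHT_0028430, 1.56) and glucan phosphorylase (CTHT_0039120, 1.45). The first of them was the 1 that rose in Xylose over Reference, by 2.56, and it had -0.83 in Glucose over Xylose.

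Of 13 chitin and cell wall genes besides the 2 members, 2 rose and 4 fell in Glucose against Reference (median -0.44 on the log2 scale). In Glucose against Xylose 8 rose, with a median of 1.23, and in Xylose against Reference 1 rose and 10 fell, with a median of -1.89. The cell wall protein gene CTHT_0057720 rose by 2.24 in Glucose over Reference, averaging 15715 ± 4878 scaled counts in Glucose, 1370 ± 398 in Xylose and 3253 ± 198 in Reference (SD, n = 3 each), and its Xylose mean was too low for the rule. The chitin synthase-like gene CTHT_0049020 had 0.82, a call that held in 11 of 16 alternative fits and was lost with total counts and without Glucose 2, Glucose 3, Reference 1 or Reference 3 (edgeR adjusted p up to 0.0831). The genes that fell were CTHT_0051440 (-1.92), the glucanosyltransferase genes CTHT_0068680 (-1.68) and CTHT_0015980 (-1.62), whose products act on wall glucan, and CTHT_0063570 (-1.30). They were called in 14, 16, 15 and 9 of 16 alternative fits, in this order. The call was lost without Glucose 1 or 2 for CTHT_0051440 and without Glucose 1 for CTHT_0015980 (edgeR adjusted p up to 0.0789 and 0.053). For CTHT_0063570 it was lost without any single Glucose library or Reference 1. It was also lost there with the replicate block, with no filter on low counts and when every library needed 10 counts (edgeR adjusted p up to 0.190). The transporter list held only the member CTHT_0027630, taken by the words carboxylic acid, and its description names no transport. The MFS transporter gene CTHT_0055740 was not on that list.

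**Figure D4:**
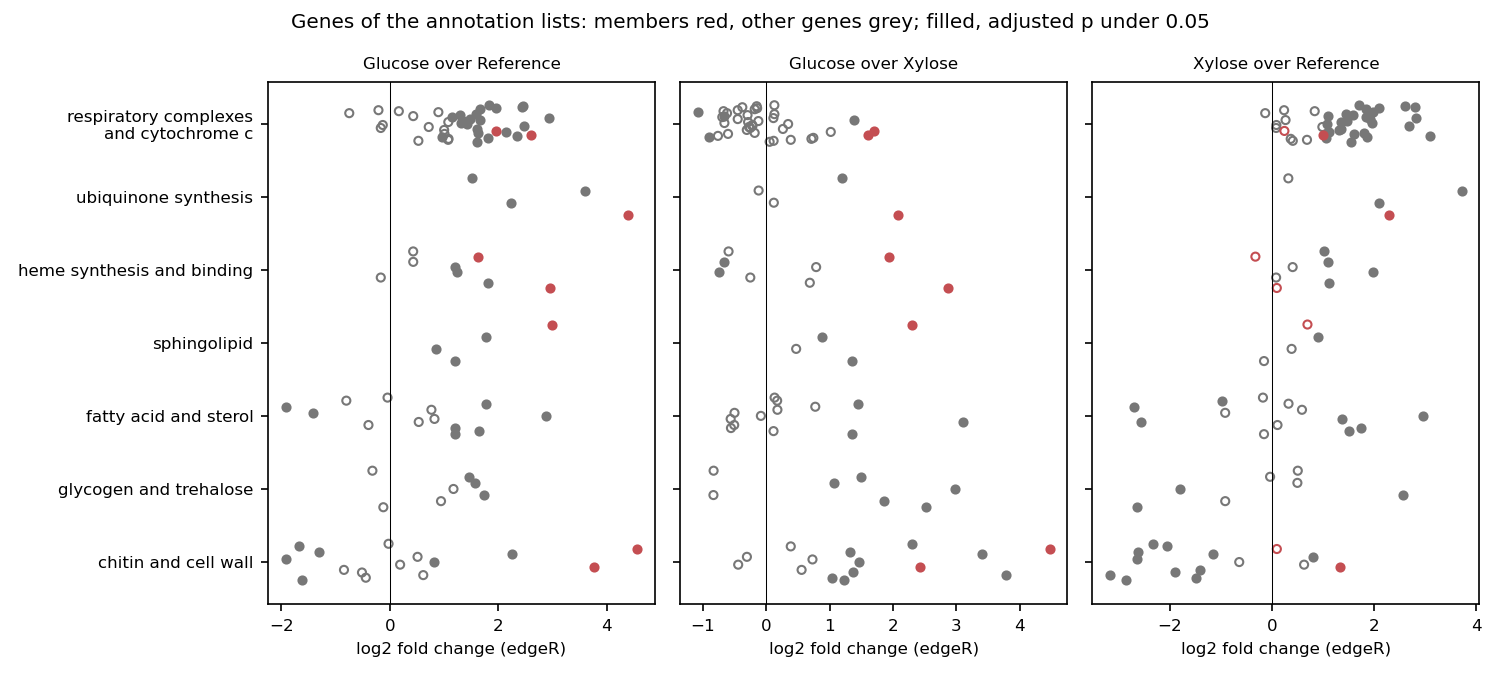
Log2 fold changes (edgeR) of the genes of 7 annotation lists in Glucose over Reference, Glucose over Xylose and Xylose over Reference, with members in red and filled points for an adjusted p under 0.05. The 38 respiratory genes lie mostly right of 0 in both comparisons with Reference and around 0 in Glucose over Xylose.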

How the data were processed

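The transcriptomes of 9 cultures were measured by sequencing of polyA RNA. The authors mapped the reads with TopHat2 to an Ensembl genome of the fungus, used summarizeOverlaps to count reads on each gene, and deposited the raw counts, not normalized. Their build is not named as that of the RefSeq table used here (CTHT_3.0), which served for gene order and gene type only, with 7472 of 7785 genes matched. Product names came from the study's annotation, held in part.

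The counts were tested with edgeR 4.0.16 in R 4.3.3 (quasi-likelihood test, TMM, filterByExpr with a minimum count of 10, Benjamini-Hochberg adjustment, threshold 0.05), with 3 groups in 1 model. The study used DESeq2. The procedure was tested on simulated data. Alternatives were DESeq2 1.42.0, other scalings, filters and thresholds, a replicate block, fits of 2 groups and leaving out each library. Scaled counts and ratios of means used the scaling of the rule. Replicates differed by far more than counting error (chi-square per degree of freedom of 239 to 1528), so the precision rests on the spread between the 3 cultures of a group.

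Members and lists were chosen with earlier results of these data known. Named members are those with a description, the 10 highest in glucose, the 10 with the largest smaller Glucose ratio, the 5 highest and 5 lowest in Xylose over Reference, neighbours, and genes at the limits. From the lists, other genes with a call in Glucose against Reference were named, up to the 4 largest changes per direction and list. Exceptions, chosen after their values were seen, are the genes CTHT_0003850, CTHT_0011270, CTHT_0021110, CTHT_0043040, CTHT_0046440 and CTHT_0019380. A glycogen synthase kinase gene was removed from its list by name.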

Additional observations from a re-analysis of the deposited data

How the results depend on the processing

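The number of members was 229 at a fold of 2, 84 at a fold of 4, and 103 to 137 without 1 library. Scaling by total counts gave 99, of which 90 were among the 115, and moved the median log2 ratio over all genes tested in Glucose over Xylose to -0.34, against -0.06 with the main scaling. It gave a median of 2.24 for the members in Glucose over Xylose. The members' medians without 1 library were 2.66 to 3.07 for Glucose over Reference, 2.43 to 2.67 for Glucose over Xylose and 0.091 to 0.43 for Xylose over Reference, the lowest without Xylose 2 and the highest without Reference 2. Neighbouring pairs numbered 17 among the 229 members at a fold of 2 and 8 among the 115 members at a fold of 3. The share of neighbouring positions held by members at a fold of 2 is not given here, so nothing is read from these pair counts.

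At an adjusted p under 0.01, 11 of 115 members were called higher in Xylose than in Reference. Of 91 genes of the lists, 2 were called lower in Glucose than in Reference and 0 lower in Glucose than in Xylose. Of 188 non-member neighbours, 25 were called higher in Glucose than in Reference. Members called lower in Xylose than in Reference numbered 0 to 6 without 1 library, with 6 without Xylose 2. Genes of the lists called lower in Glucose than in Reference numbered 7, and 1 to 7 without 1 library. Those lower in Glucose than in Xylose numbered 4, and 0 to 4 without 1 library, 1 with DESeq2 size factors, 0 when every library needed 10 counts, and 0 with no filter. With names from all tables held, chosen after seeing the data, names were held for 4034 genes in place of 1992. Then 29, 7 and 38 genes of the lists were called lower in Glucose against Reference, Glucose against Xylose and Xylose against Reference. In the main lists these were 7, 4 and 15 of 91. The main lists drew only on the table ordered by level in glucose, so they can lack pathway genes that were low in glucose. The size of the wider lists is not given here, and the part of this difference in the counts was not tested. The shares over all genes under the settings of this paragraph are not given, so nothing is read from its counts.

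The deviations of same-numbered replicates correlated at 0.19 to 0.32 over 6503 genes for number 1, but at -0.14 to 0.03 for number 2 and -0.30 to 0.09 for number 3, so the numbers were not taken to pair the samples. With the replicate number as a block, 115 and 112 members were called higher in Glucose than in Reference and in Xylose, 25 higher in Xylose than in Reference, and 1 gene of the lists lower in Glucose than in Xylose. The shares over all genes in that fit are not given here, so nothing is read from these counts. Of 714 alternative counts for single lists, 657 were within 1.5 times the main count. Protein features and promoter motifs were not run, as no sequences were used here.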
